A study of Mus musculus with 9 samples.

Results

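Of the 9 arrays in the series, 3 carry truncated forms of PREX2 in a wild-type line of mouse embryonic fibroblasts, and the shortest form was set against the other 2. The arrays were chosen by their labels alone. Each is named for the residue of the protein that a stop codon replaces, so K278* keeps the least of PREX2, E824* more and Q1430* the most. The line came from wild-type E13.5 embryos, had become immortal spontaneously in culture, and received each construct by lentivirus. The other arrays of this line carried GFP, LacZ or full-length PREX2, 1 array each, and are given beside the results as a background. The remaining 3 arrays came from a line without Suv420h1, also from E13.5 embryos, and were used only for measures of spread. Of these, 1 label names no construct, 1 names GFP and 1 names Suv420h1-GFP, which puts the gene back. The null-line pair below is the array without a named construct and the array with GFP. Each construct was measured on 1 array. The labels do not say whether the transduced cells were pools or clones, how long they were kept in culture, or which promoter drove the constructs, so construct, culture and array cannot be told apart.

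PREX2 is a guanine-nucleotide exchange factor: it loads the small GTPase Rac with GTP, which drives actin remodelling and cell movement. The catalytic DH and PH domains lie near the start of the protein, and later stretches take part in its regulation. Rac signalling is tied to PI3 kinase, whose target AKT keeps FOXO transcription factors out of the nucleus. Truncating mutations of PREX2 are known from melanoma. Embryonic fibroblasts secrete collagens, proteoglycans, growth factors and complement proteins, and move between a proliferative and a quiescent state.

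The 3 arrays were alike in overall brightness, with median signals of 58.1 (K278*), 57.5 (E824*) and 60.7 (Q1430*) and between 18649 and 18898 probe sets at a signal of 100 or more. The array carries 45037 probe sets besides controls; 18691 of them, for 10056 genes, reached a signal of 100 in the mean of the K278* value and the mean of the longer pair, and were tested. A gene with more than 1 probe set was represented by the brightest. The filter could be passed through either side alone, K278* or the longer pair, as by every tested gene whose other side read under 100. For such a gene the high value that passed the filter also makes the difference. All differences are on the scale log2(signal + 25), which understates changes of dim probe sets. The yardstick was the gap between E824* and Q1430*, which holds both the difference between those constructs and the error of the arrays. Its median size was 0.11 log2 units over genes, and 17 genes lay over 2-fold apart. K278* lay further away, by a median of 0.26 from E824* and 0.22 from Q1430*, with 369 and 207 genes over 2-fold apart. GFP and LacZ, the control constructs, differed from each other by a median of 0.31, with 743 genes over 2-fold apart, so the longer truncations were closer to each other than the control constructs were.

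The Prex2 probe set read 809 on the K278* array, 722 on E824* and 703 on Q1430*, a log2 difference of 0.18 (SE 0.13, adjusted p = 0.358, limma). It read 795 with full-length PREX2, 677 with LacZ and 452 with GFP, so it did not separate PREX2 constructs from LacZ by more than these arrays vary. Which part of the transcript it reads, and the species of the introduced PREX2, are not stated in the labels, so it does not check them. A dimmer Prex2 probe set, at 34.2 on K278*, 9.24 on E824* and 33.7 on Q1430*, was below the filter.

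With K278*, most tested genes of cell division and of ERK output were higher than with the longer truncations, and most tested interferon-stimulated genes and proteoglycan and elastic-fibre genes were lower. Members of other lists were lower singly, among them the growth factor Igf1 and the complement protease C1s1. The lipocalin Apod was lower by a log2 difference of -3.33 and the chromatin protein Hmga2 was 3.43-fold higher, on 1 array against 2. Counted by size alone, 52 of 10056 genes were over 2-fold above both longer arrays (0.517%) and 129 were over 2-fold below both (1.28%). Of these 181 genes, 52 had other tested probe sets, 70 in all, and 69 of the 70 differed in the same direction. Those probe sets read the same RNA on the same arrays, so they do not replicate the difference. The share in the same direction over all genes with several probe sets was not counted.

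In limma, which took its error from the E824* to Q1430* gap (1 residual degree of freedom, moderated across probe sets of like brightness), 1066 genes passed as higher with K278* (10.6%) and 1343 as lower (13.4%) at an adjusted p below 0.05. All 181 genes that stood over 2-fold apart were among them. The pass counts hang on that small gap. Over probe sets, 3925 passed; 0 passed with the spread of all 9 arrays (1531 at an unadjusted p under 0.05), 0 with the GFP and LacZ pair added to the error (887 unadjusted), 0 without the filter on dim probe sets (7363 unadjusted), 129 without the brightness trend, and 2423 with the null-line pair added. Below, "passed" refers to the fit on the 3 arrays. A gene that passed differed by more than the gap of the longer truncations typical of probe sets of like brightness. Its own gap weighed little, with 1 residual against 10.1 prior degrees of freedom. Passing does not mean a difference larger than separate cultures of 1 construct would show.

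**Figure D1:**
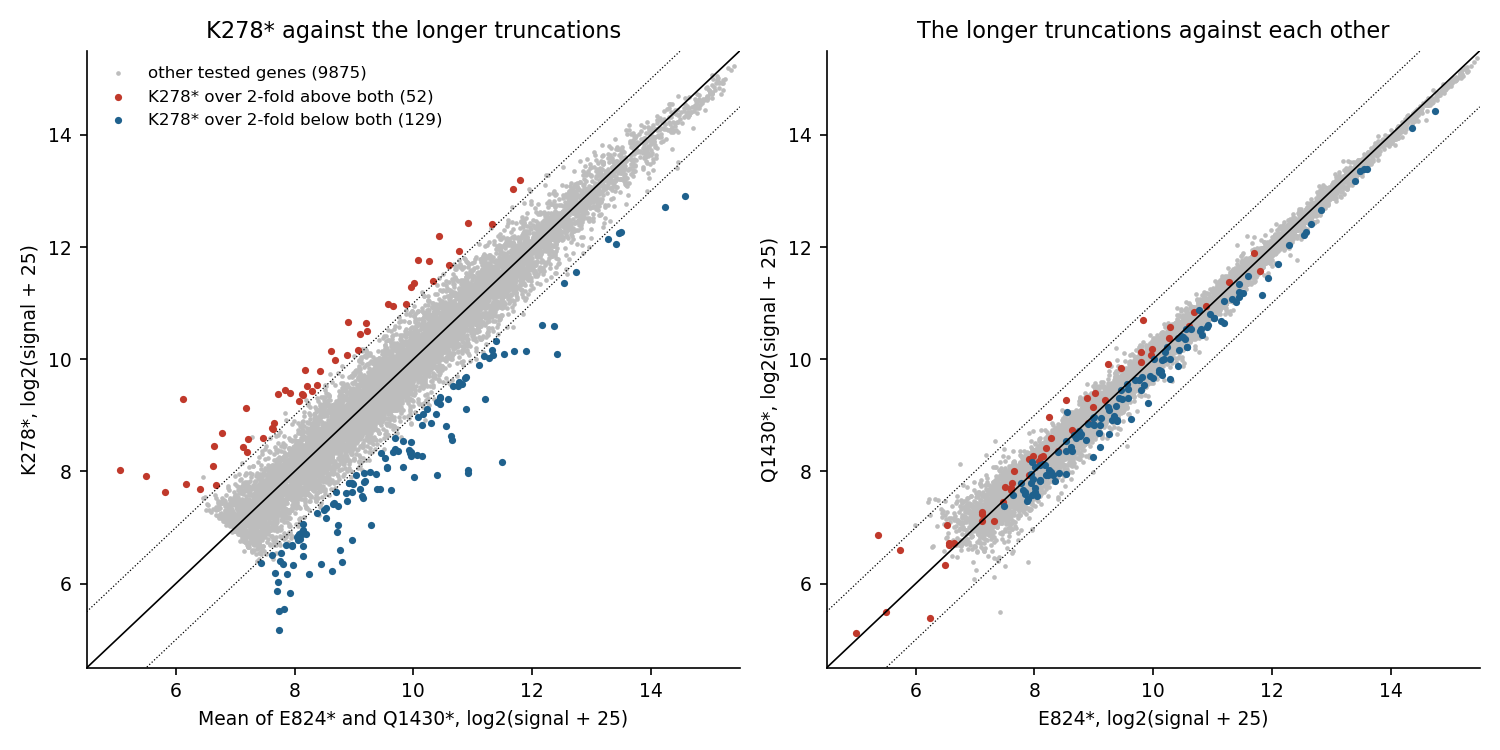
Both panels plot log2(signal + 25), 1 point for each of the 10056 tested genes; the solid line marks equality and the dotted lines a 2-fold difference. On the left the 52 genes over 2-fold above both longer arrays (red) and the 129 below (blue) leave the band, whereas on the right E824* against Q1430* keeps all but 17 genes inside it.

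The left panel of the scatter plot shows that the genes below the band span a wide range of brightness, including abundant matrix transcripts, while in the right panel most of the same coloured genes lie inside the 2-fold band. Genes with a wider gap include Lce1i, which is outside the band with an E824* minus Q1430* difference of -1.49, and Vip at -0.87.

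The 15 genes lowest with K278* were led by Apod, Adh1 and Clec3b. Apod, a lipocalin that carries small lipids and is abundant in quiescent fibroblasts, read 262 on the K278* array, 3642 on E824* and 2243 on Q1430*. The log2 difference was -3.33 (SE 0.21, adjusted p = 1.3e-05). Adh1, an alcohol dehydrogenase that oxidises retinol, read 227 against 2241 and 1617. Clec3b, the secreted plasminogen-binding protein tetranectin, read 237 against 2318 and 1585. Scara5, a ferritin receptor of stromal cells, was bright on all 3 arrays, at 1072 against 6044 and 4936. In each of these genes K278* lay well below both longer arrays, which themselves differed more in Apod and Clec3b than in Scara5. The K278* differences were -2.94 for Adh1, -2.89 for Clec3b and -2.32 for Scara5.

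The other genes of this group kept the same arrangement. The cytochrome P450 Cyp2f2 read 220 against 1504 and 1165, and the glycogen-targeting subunit Ppp1r3c 215 against 1008 and 1000. Igf1, the growth factor that signals through PI3 kinase, read 373 against 1789 and 1365, a log2 difference of -2.00 (SE 0.15, adjusted p = 2.4e-05), and its 3 other tested probe sets differed in the same direction. Il33, an alarmin cytokine held in the nucleus of stromal cells, read 85.0 against 588 and 381. Lum and Epyc, small leucine-rich proteoglycans of collagen fibrils, read 71.6 against 525 and 323 and 108 against 765 and 466. The interferon-induced GTPase Iigp1 read 353 against 1741 and 1435. Aox3, an aldehyde oxidase, read 49.4 against 484 and 282, Wfdc17 32 against 226 and 208, and the prokineticin receptor Prokr1 56.5 against 346 and 306. The last of the 15, the T-cell kinase Zap70, read 58.9 against 349 and 507, and was an exception in the control arrays: GFP, at 340, lay beside E824* and not near K278*.

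Of the 15 genes highest with K278*, Fosl1, Dusp4 and Dusp6 were on the ERK output list and Ptgs2, Ccl7 and Ereg on the cytokine list. Fosl1, the AP-1 subunit FRA-1, read 539 on the K278* array, 114 on E824* and 127 on Q1430*, a log2 difference of 1.96 (SE 0.21, adjusted p = 0.0002). Dusp6 and Dusp4, phosphatases that switch ERK off and are themselves induced by it, read 870 against 253 and 280 and 324 against 69.7 and 80.2. Hmga2, an architectural chromatin protein of embryonic and transformed cells, read 4693 against 1216 and 1498 (1.78, SE 0.12, adjusted p = 1.5e-05), with 2 other probe sets in the same direction. Ptgs2, the inducible cyclooxygenase, read 3472 against 983 and 1136, and the chemokine Ccl7 5499 against 1867 and 1948. The EGF-receptor ligand Ereg read 249 against 69.6 and 77.6, and the mitotic kinase Nek2 1601 against 346 and 591. In each of these K278* lay above both longer arrays, which were furthest apart in Nek2, where Q1430* was well above E824*.

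The remaining genes of this group are receptors, a G-protein subunit, cornified-envelope genes and 2 dim transcripts. Olr1, a receptor for oxidised lipoprotein, read 388 against 67.7 and 106, the G-protein subunit Gna14 641 against 173 and 198, and the lectin Siglecg 650 against 215 and 219. The cornified-envelope genes Sprr1a and Lce1i read 672 against 178 and 233 and 601 against 16.5 and 91.2. U90926 read 236 against 6.95 and 9.67, and Smtnl2 216 against 20.1 and 20.2. For U90926 and Smtnl2 both longer arrays lay under the offset of 25. For Lce1i only E824* did, while Q1430* read 91.2. In U90926, Smtnl2 and Lce1i the offset therefore sets much of the size of the difference. It was 2.97, 2.42 and 3.17, and became 4.19, 3.14 and 3.74 with an offset of 5 and 1.63, 1.40 and 2.23 with an offset of 100.

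**Figure D2:**
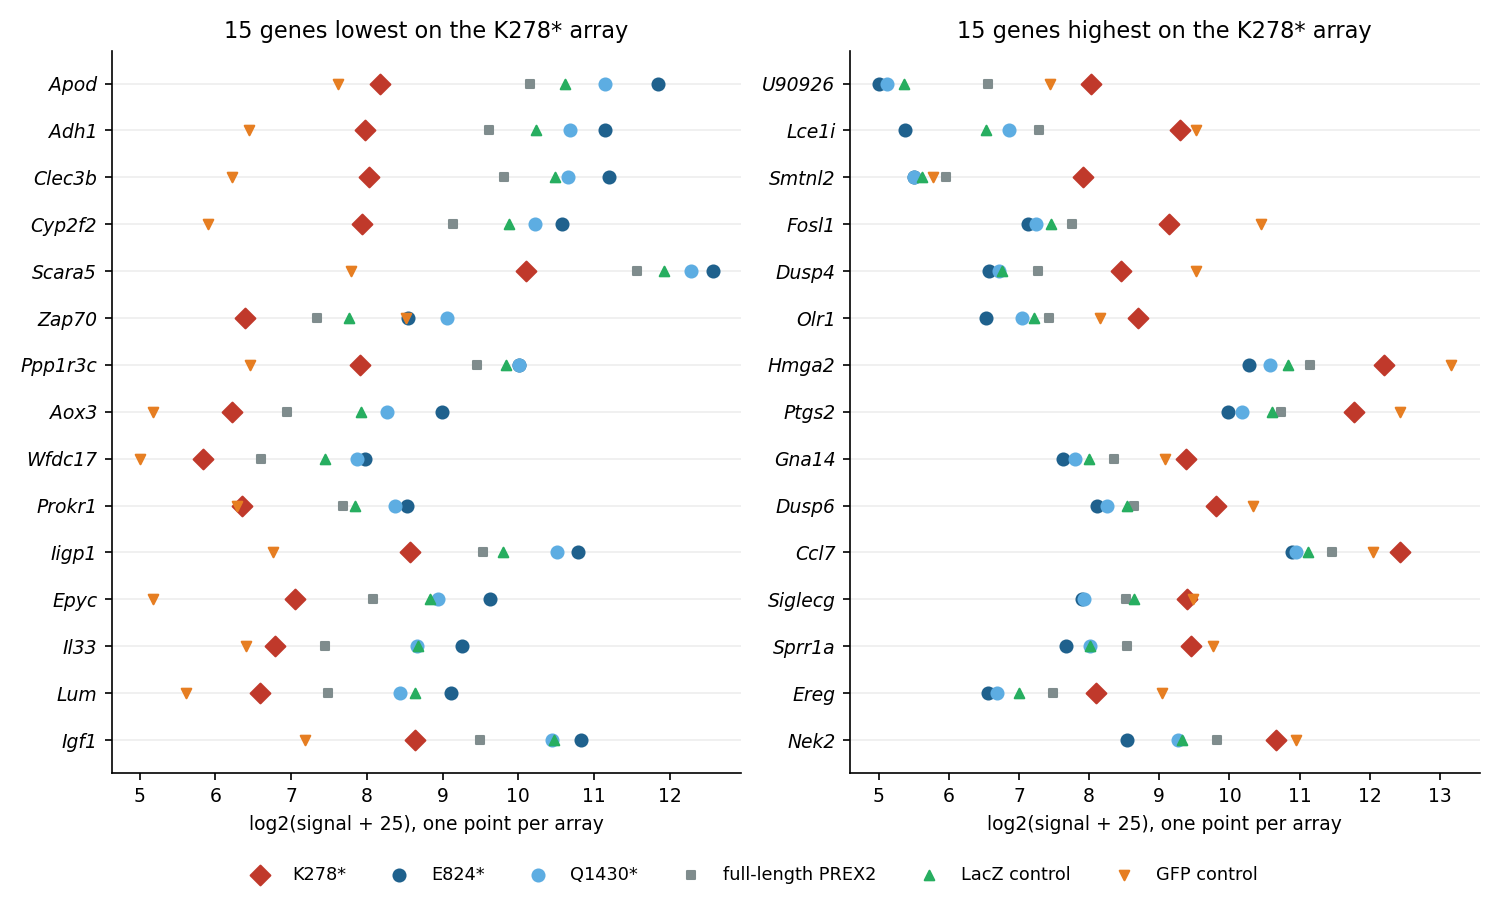
Each row is a gene and each point 1 array of the wild-type line, on the scale log2(signal + 25), for the 15 genes lowest (left) and the 15 highest (right) with K278*. K278* (red diamonds) is separated from E824* and Q1430* (circles) in every row, LacZ (green) is within 2-fold of the longer pair in 14 of 15 and 15 of 15, and GFP (orange) lies on the K278* side of both longer arrays in all rows and past K278* in 14 of 15 and 10 of 15.

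The plot of the 30 genes also places the control arrays. In Zap70 the GFP point nearly coincides with E824*. In Smtnl2 GFP is beside the longer arrays and K278* stands alone.

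The gap between GFP and LacZ ran along the same genes. Of the 129 genes over 2-fold lower with K278*, 127 were also lower with GFP than with LacZ, and of the 52 higher, 51 were higher with GFP; over all 10056 genes 75.3% had the same sign in the 2 differences. Across genes, which are not independent replicates, the difference of K278* from the longer pair and that of GFP from LacZ had a Pearson correlation of 0.74 (Spearman 0.70) with no array in common. K278* lay between GFP and LacZ for 109 of the 129 lower and 39 of the 52 higher genes. Full-length PREX2 lay within the range spanned by K278*, E824* and Q1430* for 127 and 51, which includes genes where it lay between the longer arrays. These genes were chosen for a wide distance between K278* and the longer pair, which by itself makes falling within that range likelier. For neither position was the share over all tested genes counted, so these counts describe the chosen genes only. A control construct thus differed from another in the direction in which K278* differed from the longer truncations, and whether the difference belongs to the construct was not tested, since each was measured once.

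**Figure D3:**
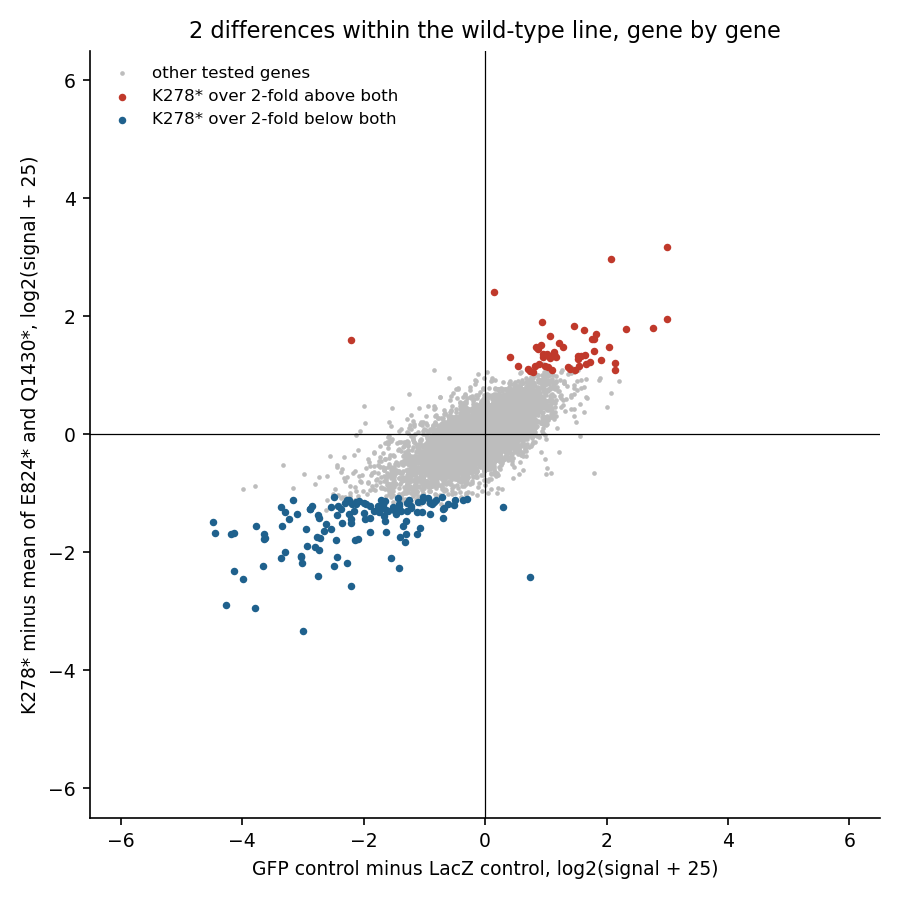
Each point is 1 of the 10056 tested genes, with the GFP minus LacZ difference on the horizontal axis and K278* minus the mean of the longer truncations on the vertical axis, both in log2(signal + 25). The genes over 2-fold below both longer arrays (blue) lie in the lower left for 127 of 129, and those above (red) in the upper right for 51 of 52.

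In the plot of the 2 differences the blue points reach further along the horizontal axis than along the vertical axis: for many lower genes GFP was further from LacZ than K278* was from the longer pair. Apod read 171 with GFP and 1539 with LacZ, Dcn 962 and 21523, and Igf2 13.4 and 835. Only 2 genes set K278* over 2-fold apart from all 5 other arrays of the line, in the same direction. Smtnl2, a smoothelin-like protein, read 216 with K278* and between 20.1 and 37.0 on the other 5, from a probe set of a kind that can read related transcripts. Carns1, carnosine synthase, was singled out after its values were seen. It read 22 with K278*, 79.3 with GFP, 174 and 233 with the longer truncations, 188 with full-length PREX2 and 255 with LacZ.

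The order of the 3 arrays did not follow the order of the stop positions. Among the 129 genes lower with K278*, Q1430* lay in the middle in 120, with E824* furthest from K278*, and among the 52 higher genes in 44. Over all tested genes Q1430* was the middle array in 55.0%, E824* in 30.5% and K278* in 14.5%.

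Cell-cycle genes moved as a block. Of 38 tested genes of the G1/S transition and DNA replication, 32 were higher with K278*, 0 lower, and 6 did not pass, against 10.6% higher and 13.4% lower over all tested genes. The counts of every list below are to be read against these shares of all genes. The median difference was 0.74, against -0.02 over all genes, and the smallest member's difference was 0.14. Mcm2, a subunit of the replicative helicase, read 1582 on K278*, 493 on E824* and 647 on Q1430* (1.45, SE 0.16, adjusted p = 0.00023). Mcm4, of the same helicase, read 5437 against 2464 and 2625, cyclin E2 (Ccne2) 828 against 324 and 404, and the initiation factor Mcm10 574 against 268 and 283. For these 4 genes both longer arrays lay far below K278* and near each other.

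Of 39 tested genes of G2/M and mitosis, 34 were higher and 0 lower, with a median of 0.64. Nek2 led them. Ect2, an exchange factor needed for cytokinesis, read 2654 against 1210 and 1313, the contractile-ring scaffold Anln 8174 against 3568 and 4456, and the kinetochore protein Nuf2 2219 against 1045 and 1226. GFP was also above LacZ in these lists, by a median of 0.73 for G1/S and 0.49 for G2/M. Members of these lists are transcribed together in dividing cells, so their count is not that of independent genes, and in bulk RNA more dividing cells and more RNA per cell cannot be told apart.

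Regulators of the G1 phase went both ways. Of 16 tested CDK inhibitors, D cyclins and RB-pathway genes, 6 were higher and 1 lower (median 0.23). Cyclin D1 (Ccnd1), which starts RB phosphorylation, read 8765 on K278* against 4666 and 4857 (0.88, SE 0.09, adjusted p = 0.00014), and Cdk6 and Cdk2 read 944 against 532 and 619 and 857 against 515 and 509. The inhibitor p21 (Cdkn1a) was higher as well, at 5292 against 3177 and 2883 (0.80, adjusted p = 0.00036). The inhibitor p27 (Cdkn1b), a gene activated by FOXO factors, was lower, at 1977 against 2643 and 3032 (-0.51, adjusted p = 0.007). Cdkn1c and Cdkn2a read under 25 on all 3 arrays and were not tested. Of 24 tested p53 targets 11 were higher and 3 lower (median 0.32). Beside Cdkn1a, they included the antiproliferative Btg2 (1110 against 567 and 508), the kinase Plk2 (3579 against 2035 and 2187) and Mdm2, the ubiquitin ligase that degrades p53 (2372 against 1452 and 1305).

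**Figure D4:**
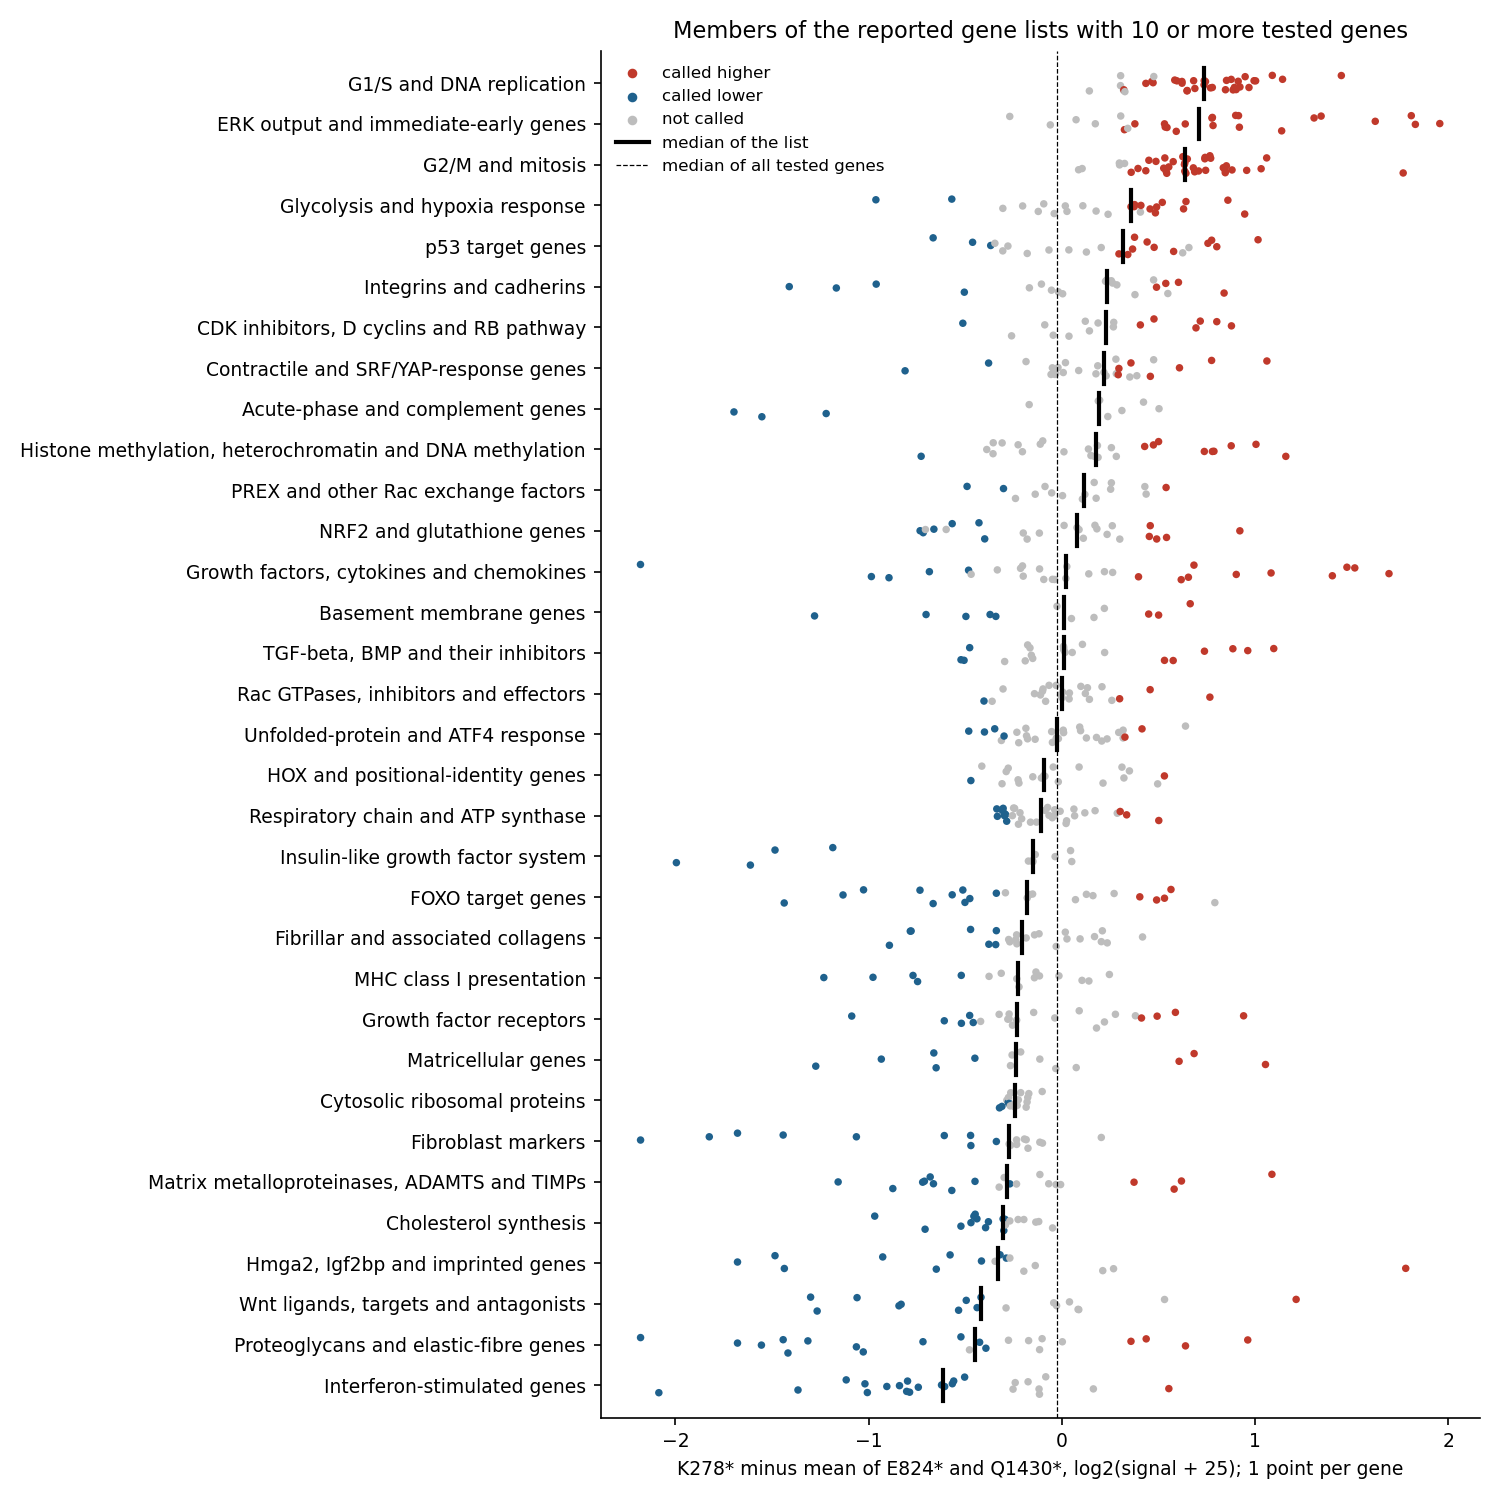
Each point is a tested gene, placed by K278* minus the mean of E824* and Q1430* in log2(signal + 25) and coloured by whether it passed higher (red), lower (blue) or not (grey); black bars are list medians and the dashed line the median of all tested genes, -0.02. The G1/S, ERK and G2/M lists sit furthest to the right (medians 0.74, 0.71 and 0.64), and the interferon-stimulated list furthest to the left (-0.61).

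The plot of the lists shows lists of different shape. In the cell-cycle lists every tested member lies above 0, from 0.14 to 1.45 for G1/S and from 0.09 to 1.77 for G2/M. In the insulin-like growth factor list 4 members lie far to the left, and the other 7 are grey.

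ERK output and immediate-early genes formed the list with the largest single differences among the higher lists. Of 26 tested, 20 were higher and 0 lower, with a median of 0.71, and 7 lay over 2-fold above both longer arrays. Besides Fosl1, Dusp4 and Dusp6, Spry4, an inhibitor of receptor-tyrosine-kinase signalling that ERK induces, read 174 against 50.6 and 16.7 (1.83, SE 0.39). Both longer arrays read under 100 for Spry4 and Dusp4, so these genes passed the filter through K278* alone. GFP stood above LacZ by a median of 0.57 in this list.

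Few transcripts of Rac exchange factors, Rac GTPases and their partners passed. Of 16 tested PREX and other Rac exchange factors 1 was higher (Elmo2, a partner of DOCK exchange factors, 480 against 311 and 335) and 2 were lower (Dock4, 459 against 678 and 633, and Trio, 2982 against 3809 and 3562). Prex1 was below the filter, at 15.7, 46.5 and 5.18. Of 25 Rac GTPases, inhibitors and effectors 3 were higher and 1 lower, with a median of 0.00. The largest difference there was that of Racgap1 (2259 against 1151 and 1510), a Rac and Cdc42 inactivator that works in cytokinesis. Arhgap17 read 827 against 561 and 633, the Arp2/3 subunit Actr3 13745 against 11228 and 11113, and another, Arpc1a, 2182 against 2968 and 2823. Rac1 read 5624, 5560 and 5705, a difference of -0.002 (adjusted p = 0.991). The shares higher and lower were 6.25% and 12.5% for the exchange factors and 12% and 4% for the Rac GTPases, inhibitors and effectors, against 10.6% and 13.4% of all genes. With so few genes a single call moves these shares, and whether they differ from those of all genes was not tested. Transcript levels do not measure Rac activity.

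Akt1, a kinase that PI3 kinase activates, read 1271 on K278*, 1242 on E824* and 1139 on Q1430*, a difference of 0.09 (adjusted p = 0.603). Of 23 FOXO targets 10 were lower and 4 higher (median -0.18). Pik3ip1, a membrane inhibitor of PI3 kinase, was the lowest, at 440 against 1358 and 1120 (-1.44, SE 0.14, adjusted p = 0.00012). It was followed by Sesn3, a sestrin that restrains mTORC1 (1045 against 2533 and 2126), Txnip, an inhibitor of glucose uptake (1775 against 3960 and 3350), and the atypical cyclin Ccng2 (1643 against 2988 and 2531). The median difference of GFP from LacZ in this list was -0.41.

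Promoter sequences were read for 5 lists that are each known for a motif: G1/S, G2/M, ERK output, interferon-stimulated and FOXO target genes. They come from RefSeq on GRCm38.p6, 250 bases before and 50 after a start site, and motifs were searched on both strands. Of the 38 tested G1/S genes 30 had an entry, with 35 promoters, and 37.1% of these held TTCCCGC, a form of the E2F site, against 4.60% of all 32851 promoters in the table and 8.46% of the 10515 promoters of tested genes. TTTGAA, the core of the CHR element of mitotic genes, was in 72.2% of the 36 promoters of 33 G2/M genes, against 17.9% of all and 11.7% of those of tested genes. CCAAT was in 77.8% of them, against 37.4% and 37.9%. The CArG box, bound by SRF, was in 21.7% of 23 promoters of 18 ERK-list genes, against 1.63% and 1.30%. The core of the interferon-stimulated response element, GAAA followed by any 2 bases and GAAA again, was in 54.5% of 22 promoters of 19 interferon-list genes, against 3.44% and 2.92%. TGTTTAC, a forkhead site, was in 9.09% of 22 promoters of 20 FOXO-list genes, against 3.65% and 2.47%. These lists are known for these motifs, so the shares describe the lists and not the K278* array. Among promoters of the genes over 2-fold higher with K278*, whatever their list, 18.4% of 49 held TTTGAA, above the share of tested genes and near that of all promoters, and 6.12% held TTCCCGC, below the share of tested genes and above that of all. Of those over 2-fold lower 6.03% of 116 held the response-element core, against 3.44% of all promoters and 2.92% of those of tested genes. TGTTTAC was also in 6.03%, against 3.65% and 2.47%. Each of these shares rests on 7 promoters.

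For each of 4 motifs the promoter of 1 member is shown 5′ to 3′ on the strand of the gene, with the motif in capitals. The first is of Mcm3, a helicase subunit, at chr1:20820263-20820562 on the minus strand, with the E2F site as its reverse complement. The second is of Ect2, at chr3:27153829-27154128 on the minus strand, with TTTGAA 2 times. The third is of Egr2, an immediate-early transcription factor, at chr10:67537316-67537615 on the plus strand, with a CArG box. The fourth is of Gbp3, an interferon-induced GTPase, at chr3:142559794-142560093 on the plus strand, where 2 overlapping copies of the response-element core lie on the other strand. A match is a run of letters, not a measured binding site.
Mcm3: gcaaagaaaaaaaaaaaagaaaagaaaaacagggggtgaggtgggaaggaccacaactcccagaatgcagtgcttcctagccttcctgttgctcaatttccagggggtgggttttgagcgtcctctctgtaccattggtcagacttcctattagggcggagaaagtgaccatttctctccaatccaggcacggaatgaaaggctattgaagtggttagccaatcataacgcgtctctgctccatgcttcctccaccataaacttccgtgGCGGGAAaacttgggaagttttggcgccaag
Ect2: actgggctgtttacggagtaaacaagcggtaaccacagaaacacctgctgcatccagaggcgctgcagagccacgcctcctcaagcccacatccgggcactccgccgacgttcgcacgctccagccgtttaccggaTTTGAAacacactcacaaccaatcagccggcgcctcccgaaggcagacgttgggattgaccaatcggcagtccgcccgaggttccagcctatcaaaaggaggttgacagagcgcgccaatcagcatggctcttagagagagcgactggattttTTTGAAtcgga
Egr2: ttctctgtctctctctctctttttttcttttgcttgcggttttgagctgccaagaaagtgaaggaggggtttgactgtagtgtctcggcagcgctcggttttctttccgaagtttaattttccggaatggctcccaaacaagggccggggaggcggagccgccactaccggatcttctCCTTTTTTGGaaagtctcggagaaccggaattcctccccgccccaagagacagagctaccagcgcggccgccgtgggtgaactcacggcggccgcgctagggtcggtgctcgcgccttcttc
Gbp3: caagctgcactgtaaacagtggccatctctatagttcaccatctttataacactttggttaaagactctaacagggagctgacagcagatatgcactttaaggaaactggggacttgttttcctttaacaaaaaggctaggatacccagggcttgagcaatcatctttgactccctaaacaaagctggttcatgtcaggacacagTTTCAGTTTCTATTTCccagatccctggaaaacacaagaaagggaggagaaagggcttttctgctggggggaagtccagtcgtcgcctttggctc

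Genes of the extracellular matrix differed between classes, and lower members outnumbered higher ones in each class given here. Of 22 tested proteoglycans and elastic-fibre genes 12 were lower and 4 higher, with a median of -0.45, and 6 lay over 2-fold below both longer arrays. Dcn, decorin, which coats collagen fibrils, was among the brightest transcripts of the line and read 7633 on K278*, 27342 on E824* and 21936 on Q1430* (-1.68, SE 0.12, adjusted p = 1.6e-05). Osteomodulin (Omd) read 1104 against 3900 and 2776, and the fibrillin Fbn2 301 against 805 and 769. With Lum and Epyc, Dcn lies on chromosome 10. The longer truncations differed less from each other than from K278* in all of these.

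Of 24 tested fibrillar and associated collagens 7 were lower and 0 higher (median -0.21), with smaller differences. Col6a1 and Col6a2, chains of the beaded-filament collagen VI, read 3800 against 6744 and 6388 and 5486 against 9998 and 8915. Col5a3 read 153 against 303 and 308, and Col3a1 22245 against 31313 and 30448. In basement membrane 5 of 12 were lower and 3 higher, and the nidogens moved in opposite directions: Nid2 read 229 against 635 and 551, and Nid1 13284 against 8102 and 8659. The laminin chains Lama4 (1616 against 2498 and 2804) and Lamb2 (762 against 1098 and 1073) were lower. Of 14 matricellular genes 5 were lower and 3 higher. Ccn2, a connective-tissue growth factor induced by YAP and TGF-beta, was higher at 10003 against 4466 and 5173. Ccn3, of the same family, was lower at 11758 against 23660 and 21388, as were Smoc2 (461 against 1434 and 921) and Thbs3 (818 against 1310 and 1287).

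Among matrix-degrading enzymes and their inhibitors 9 of 20 were lower and 4 higher (median -0.28). The urokinase receptor Plaur, on this list, was higher at 916 against 388 and 450. The stromelysins Mmp3 and Mmp11 (605 against 1732 and 1098, and 369 against 627 and 615) were lower, and so was Mmp9, a gelatinase, at 85.0 against 169 and 185. Of 27 contractile and SRF- or YAP-responsive genes 7 were higher and 2 lower (median 0.22). The YAP target Ankrd1 read 6734 against 2838 and 3643, gamma smooth-muscle actin Actg2 1988 against 1018 and 1302, and calponin Cnn1 803 against 466 and 576. Myosin light-chain kinase, Mylk, was lower at 706 against 1120 and 1412. Of 21 integrins and cadherins 4 were higher and 4 lower. The hyaluronan receptor Cd44 read 7254 against 3953 and 4137. The collagen-binding integrin subunit Itga1 (301 against 634 and 585), Itga8 (753 against 1927 and 1540) and Itgbl1 (182 against 605 and 458) were lower.

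Secreted growth signals differed from list to list. In the insulin-like growth factor system 4 of 11 tested genes were lower, 0 higher, and all 4 lay over 2-fold below both longer arrays, while the other 7 stayed near 0 (list median -0.15). Besides Igf1, the fetal growth factor Igf2 read 246 against 937 and 571, and the binding proteins Igfbp3 and Igfbp4 read 297 against 1076 and 854 and 2984 against 7205 and 6453. All 4 were lower with GFP than with LacZ. Of 17 Wnt genes 9 were lower and 1 higher (median -0.42). The R-spondin Rspo3, which amplifies Wnt signals, read 602 against 1572 and 1469, the ligand Wnt4 1010 against 2774 and 2189, and the receptor Fzd4 176 against 412 and 377. The antagonist Dkk2 was higher, at 440 against 169 and 182. Of 22 TGF-beta and BMP genes 6 were higher and 3 lower (median 0.01). The higher share, 27.3%, was above the 10.6% of all genes, and the lower share, 13.6%, was near their 13.4%. The BMP antagonist Grem1 read 8394 against 3316 and 4617, the latent-TGF-beta-binding protein Ltbp1 4256 against 2014 and 2346, the activin subunit Inhba 1828 against 845 and 1133, and the pathway inhibitor Smad7 805 against 458 and 488.

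Of 29 growth factors, cytokines and chemokines 10 were higher and 5 lower. Ptgs2, which makes prostaglandins and was placed on this list, Ccl7 and Ereg led on the higher side and Il33 on the lower. Of 23 growth factor receptors 4 were higher and 5 lower (median -0.23). The ephrin receptor Epha2 read 371 against 206 and 159. The GDNF co-receptors Gfra1 and Gfra2 (365 against 843 and 765, and 1497 against 2168 and 2148) and the PDGF receptor Pdgfra (3299 against 5465 and 4653) were lower.

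Interferon-stimulated genes had the lowest median of all lists with at least 10 tested genes, -0.61. Of 24 tested, 16 were lower and 1 higher. Xaf1, a pro-apoptotic interferon-induced protein, read 496 against 1490 and 1164 (-1.37, SE 0.15, adjusted p = 0.00022). The GTPases Gbp3 and Igtp read 235 against 604 and 481 and 266 against 538 and 503. Of 16 genes of MHC class I presentation 5 were lower and 0 higher. They included the immunoproteasome subunits Psmb8 (148 against 384 and 377) and Psmb9 (89.1 against 229 and 174), the peptide transporter Tap1 (188 against 340 and 326) and tapasin, Tapbp (1475 against 2491 and 2578). Acute-phase and complement genes divided. Of 10 tested, 3 were lower, all over 2-fold below both longer arrays, and 0 higher. The complement proteases C1s1 and C1ra read 1544 against 5000 and 4190 and 714 against 1903 and 1510, and the protease inhibitor Serpina3n 181 against 688 and 600. The list's median was 0.19 and had the other sign under 1 alternative setting. The interferon list was lower with GFP than with LacZ by a median difference of -1.20, which exceeds its K278* difference.

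Of 16 tested genes of the Hmga2, Igf2bp and imprinted list 9 were lower and 1, Hmga2, was higher. Dcn and Igf2, already given, and Plagl1, a zinc-finger regulator of imprinted growth genes (1072 against 3062 and 2830), were the lowest. GFP was below LacZ in this list by a median difference of -0.79. Of 26 histone- and DNA-methylation genes 9 were higher and 1 lower (median 0.18). Suv39h2, a histone H3 methyltransferase, read 302 against 114 and 129. Hells and Uhrf1, which act in maintenance of DNA methylation at replication, read 3463 against 1562 and 1881 and 1783 against 844 and 1092, and the Polycomb protein Cbx2 264 against 151 and 134. Kmt5b, the enzyme removed in the other line of the series, differed by -0.20 (adjusted p = 0.378), and of its 3 other tested probe sets 1 differed in the same direction. Of 20 HOX and positional-identity genes 1 was higher (Hoxb2, 598 against 436 and 379) and 1 lower (Prrx1, 10717 against 15029 and 14703). Both shares, 5%, were below the 10.6% and 13.4% of all genes.

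In metabolism, 12 of 25 glycolysis and hypoxia genes were higher and 2 lower (median 0.36). Hexokinase 2 (Hk2) read 587 against 289 and 338, phosphoglycerate mutase Pgam1 12139 against 7802 and 7739, and the prolyl hydroxylase Egln3 328 against 138 and 180. Ndrg1, a stress- and hypoxia-induced gene, was lower at 3793 against 7859 and 6996. Of 19 genes of cholesterol synthesis 12 were lower and 0 higher, with a median of -0.30 and every member below 0. Mvd read 511 against 1030 and 1019, Dhcr7 322 against 570 and 514, Ebp 3698 against 5467 and 5183, and Pmvk 893 against 1232 and 1236. These enzymes span the pathway from mevalonate to its last step.

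Of 34 respiratory-chain and ATP-synthase genes 9 were lower and 3 higher, all within small differences (-0.34 to 0.50). Cytochrome c, Cycs, read 17327 against 12069 and 12402, and Cyc1 12739 against 10047 and 10142. Sdhc (1639 against 2051 and 2094) and Cox5b (17222 against 21310 and 21329) were lower. The other tested probe set of Sdhc did not differ in the same direction. Of 20 cytosolic ribosomal protein genes 4 passed as lower, Rps3, Rpl6, Rpl27 and Rps19, by -0.27 to -0.32, and the median was -0.24; after quantile normalization the median was -0.04 and Rpl6, Rpl27 and Rps19 did not pass. Among NRF2 and glutathione genes 5 of 25 were higher and 6 lower. The glutathione-synthesis enzyme Gclc read 1268 against 649 and 668, while the transferases Gstm1, Gstm2 and Mgst1 were lower (2611 against 4574 and 4061, 2379 against 4208 and 3750, and 10561 against 17855 and 15678). Of 30 unfolded-protein and ATF4-response genes 2 were higher (Sdf2l1 860 against 651 and 626, Psat1 11760 against 9157 and 9599) and 4 lower, among them Vldlr (3872 against 5349 and 5490) and Slc3a2 (2780 against 3580 and 3779). These shares, 6.67% and 13.3%, were no larger than the 10.6% and 13.4% of all genes. Of 6 metallothionein and zinc-response genes only Mt1 passed, lower, at 2416 against 3138 and 3332. That share, 16.7%, is near the 13.4% of all genes.

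Among fibroblast markers, Vim read 31334 on K278*, 36833 on E824* and 34893 on Q1430*, and Col1a2 25072, 32374 and 31090. All 19 on the array passed the filter, which is a mean over the 3 arrays and does not vouch for each. Lum and Fap read under 100 on K278* and passed through the longer arrays. Of the 19 markers 9 were lower with K278* and 0 higher, with a median of -0.27. The summed signal was 196600 on K278*, 262530 on E824* and 247990 on Q1430*, beside 185450 with GFP and 256150 with LacZ. Fap, a serine protease of activated stroma, read 33.7 against 213 and 156, and the microfibril protein Mfap5 342 against 1216 and 777; Lum and Dcn, given above, are also on this list. Markers of other cell types were few. Of 10 adipocyte markers on the array 4 were tested and 2 lower, lipoprotein lipase Lpl (4482 against 10729 and 9218) and the desaturase Scd1 (4247 against 6970 and 6818). The other 2 tested, Fabp4 (391 against 277 and 315) and Dgat2 (229 against 217 and 205), read higher on K278* but did not pass. Adipoq, Cd36 and Lep were under 25 on all 3 arrays. The summed signal of the adipocyte list, most of it from Lpl and Scd1, was 9500 with K278*, 18393 with E824* and 16696 with Q1430*, beside 7040 with GFP and 17588 with LacZ. Of 11 cartilage and bone markers 1 was tested and of 13 muscle markers 4, and 0 passed.

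Of 11 endothelial markers 2 were tested and Tek, an angiopoietin receptor, was lower at 193 against 488 and 477, with Tie1 and Vwf under 25 on all 3 arrays. The other tested, Eng, read higher on K278*, at 170 against 121 and 159, but did not pass. Of 12 macrophage and blood markers 3 were tested, and they moved apart: lysozyme, Lyz2, read 365 against 993 and 744 and Laptm5 161 against 53.3 and 77.4, with Hba-x and Itgam under 25. Laptm5 passed the filter through K278* alone. Of 11 epithelial markers 2 were tested and 0 passed, with Cldn4, Esrp1 and Krt14 under 25. Of 13 neural and melanocyte markers 4 were tested and Map2, a microtubule-associated protein, was lower at 966 against 1837 and 1703, with Snap25 and Sox2 under 25. The others tested did not pass. Tubb3 (375 against 269 and 318) and Nes (123 against 66.0 and 118) read higher on K278*, and Mitf (155 against 192 and 194) lower. The summed signals of K278*, E824* and Q1430* were 1403, 1827 and 1606 for the macrophage and blood list, 851, 778 and 859 for the epithelial, 672, 954 and 957 for the endothelial and 1857, 2641 and 2625 for the neural list. The part of other cell types in the results was not tested.

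The gap between the longer truncations, against which all of this was judged, had few large members, and several were single dim readings. Wdr44, a Rab11-binding protein, read 726 on E824* and 325 on Q1430*, with 740 on K278*. Rnf122, a ubiquitin ligase, read 485 on E824* and 230 on Q1430*, with 178 on K278*. The other genes highest on E824* against Q1430* were 2810032G03Rik (214 and 59.1), Sema4b (225 and 99.1) and Zdhhc1 (225 and 101). On the other side the neuropeptide gene Vip read 888 on E824*, 1648 on Q1430* and 3439 on K278*. It was the only 1 of these 10 genes that also lay over 2-fold from both on K278* (1.49, SE 0.25, adjusted p = 0.0022), and it did not pass with the null-line pair added to the error (adjusted p = 0.103). Tmem161b (155 and 311), Irf2bp1 (121 and 291), Clip4 (136 and 349) and Cfp (83.0 and 257) completed the group, with K278* between the longer arrays in each.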

How the data were processed

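The authors deposited 1 intensity for each probe set and array, computed with MAS5 according to the submitters' processing notes. The sources used here give neither its version nor its scaling target. Total RNA had been labelled with a 3' transcription kit, per the labels' protocols. From 45101 probe sets, 64 controls were removed. A single gene symbol was attached to 34945 of the 45037 kept, several to 932 and none to 9160, and only the single symbols served as names (34741 matched RefSeq GRCm38.p6 by gene identifier).

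Signals were transformed to log2(signal + 25) without further normalization, and probe sets with a group-balanced mean under 100 were left out. K278* was fitted against E824* and Q1430* with limma 3.58.1 in R 4.3.3, with an intensity trend, two-sided, and Benjamini-Hochberg adjustment over all 18691 tested probe sets. The lone K278* array was assumed to vary like the other pair, and nothing in the p-values reflects separate cultures. No slide, scan or culture labels were used, so no batch was modelled.

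The genes named are the 15 highest and 15 lowest by the difference from the nearer longer array among genes that passed, lay over 2-fold from both and reached a signal of 200 on the brighter side, up to 4 passing members of each of 42 lists (1 of them is not reported here), 5 each way for the E824* to Q1430* gap, and 11 fixed genes. The members and lists were chosen with earlier results of these data known. Among the named genes that passed, Sdhc, Gfra2, Rpl27 and Trio had other tested probe sets that did not all differ in the same direction. None of those probe sets passed in the opposite direction. Alternatives were other offsets and filters, quantile normalization, no trend, other estimates of spread and either longer array left out. The fit was checked on simulated data first.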

Additional observations from a re-analysis of the deposited data

How the results depend on the processing

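Of the 166 named genes, the 153 that passed kept their direction under every setting that still held them: offsets of 5 and 100, no filter, a minimum of 200, a filter on the mean of 9 arrays, quantile normalization, other estimates of spread and either longer array left out. Only quantile normalization could have changed it. Every gene that passed had K278* outside the range of the longer pair, and the other settings do not alter the order of the arrays. The kept direction is therefore no support for these genes. Of the 13 that did not pass, Rac1 and 5 genes of the E824* to Q1430* gap changed sign with a longer array left out. The calls did not hold as well. The 3925 probe sets that passed became 0 without the filter, 129 without the intensity trend, 0 with the spread of all 9 arrays, and, chosen after seeing the data, 0 with the control-vector pair and 2423 with the null-line pair in the error; other settings gave 3911 to 4050. The smallest adjusted p with 9 arrays was 0.576 (limma). The 288 probe sets over 2-fold from both longer arrays became 158 with an offset of 100 and 697 without the filter, and with a longer array left out, compared with the remaining array alone, 347 (without E824*) to 631 (without Q1430*). The 47 probe sets in the E824* to Q1430* gap became 77 and 7 with offsets of 5 and 100, 1546 without the filter and 7 with a minimum of 200. No paired analysis was possible because the labels give no replicate numbers. With 1 array for each construct, the error of a single construct is unknown, and dim probe sets under the offset of 25 have no reliable size.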

Other observations

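Most of the genes that set K278* apart, 133 of 181, were in none of the lists. The following were singled out after their values were seen and are given as values. On the lower side stood further enzymes that oxidise alcohols and aldehydes, beside Adh1 and Aox3: Aldh1a1 read 302 on K278*, 1101 on E824* and 859 on Q1430*, and Aldh1a7 1519, 5925 and 4737. The BH3-only cell-death genes Bmf (242, 726 and 729) and Bcl2l11 (608, 1456 and 1288) were lower, as were the chaperone clusterin, Clu (605, 2680 and 2047), the selenium carrier Selenop (6729, 20988 and 17743), the calcification inhibitor Mgp (4840, 11949 and 10759), the B-cell chemokine Cxcl13 (283, 1350 and 920) and the circadian transcription factor Dbp (796, 1974 and 1764). The noncoding RNA Zfas1 read 4248, 11396 and 10482.

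On the higher side the transferrin receptor Tfrc read 2486 on K278*, 863 on E824* and 1100 on Q1430*, the origin-recognition subunit Orc1 590, 217 and 274, and the condensin subunit Ncapg2 3262, 1538 and 1525. The actin-associated protein Tagln2 (8412, 3532 and 3010), the TWEAK receptor Tnfrsf12a (3869, 1631 and 1821) and the desmosomal plakophilin Pkp2 (644, 227 and 286) were higher too. With Sprr1a and Lce1i, Sprr2k (320, 115 and 115) was another cornified-envelope gene on this side.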
